A study of Mus musculus with 2 samples.

Results

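Among 9349 cells kept from a culture of induced myogenic progenitor cells (iMPCs), 386 held at least 5 transcripts of Ckm, the muscle creatine kinase, and 0 transcripts of Myh4, the gene of the fast IIb myosin heavy chain. These Ckm-high cells without Myh4 made up 4.13% of the culture (exact binomial interval 3.73 to 4.55%). They were chosen by their measured counts. A barcode had to hold about 8000 or more unique molecular identifiers (UMIs, each standing for 1 captured transcript), at least 500 genes and at most 20% mitochondrial UMIs, then at least 5 Ckm and 0 Myh4 UMIs. They are compared with 672 Ckm-low cells, which held at least 10 UMIs of Myh3 (the embryonic myosin heavy chain) and at most 1 of Ckm, and with 492 Myh4-positive cells, which held at least 5 Ckm and at least 2 Myh4 UMIs. The values of Ckm, Myh3 and Myh4 that separate these sets follow from the choice. Because the same cells' counts made the sets, all ratios between them are given as description.

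The iMPCs were mouse embryonic fibroblasts of the genotype Tg:Pax7-nGFP/C57BL6;DBA2 (a nuclear GFP reporter of Pax7) that had been converted with MyoD together with F/R/C and were kept in medium with F/R/C. The series' design text describes a stable iMPC clone, so the cells may stand for 1 line only. The other library held fibroblasts (MEF) of the same genotype in MEF medium. Each was a single 10x Genomics 3′ library, so no comparison has replicates, no test was possible, and every interval covers counting error alone. The labels do not say whether the MyoD counted here came from the introduced gene or from the cells' own.

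Skeletal muscle cells leave the cell cycle, switch on Myog and then fill with contractile proteins, while they fuse into multinucleate fibres. Myosin heavy chain genes are used in a known order, with the embryonic Myh3 and the perinatal Myh8 before the adult fast genes Myh2, Myh1 and Myh4. Creatine kinase M, the product of Ckm, buffers ATP beside the contractile filaments and is a common marker of late differentiation.

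Ckm lies on chromosome 7 (chr7:19404776-19422841, plus strand, GRCm38, GENCODE M21). The myosin genes of fast and developing muscle lie side by side on the plus strand of chromosome 11, in the order Myh3 (chr11:67078300-67102291), Myh2 (chr11:67171027-67197517), Myh1 (chr11:67200052-67224575), Myh4 (chr11:67238029-67260446) and Myh8 (chr11:67277124-67308634). Windows of 250 bases before the RefSeq starts of Ckm, Myh4 and Myh8 are shown because the first pair defined the cells and Myh8, the neighbour of Myh4, moved with it (below). They are from RefSeq (GRCm38.p6), plus strand, 5′ to 3′. Capitals mark matches to the E-box CANNTG, the word read by MyoD family factors, the CArG box, read by serum response factor, and the MEF2 site. Each of these patterns reads the same on both strands, and no matches overlapped.
Ckm: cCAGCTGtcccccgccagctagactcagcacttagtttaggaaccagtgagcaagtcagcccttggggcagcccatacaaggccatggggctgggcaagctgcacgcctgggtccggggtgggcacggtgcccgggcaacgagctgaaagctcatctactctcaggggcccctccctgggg
Myh4: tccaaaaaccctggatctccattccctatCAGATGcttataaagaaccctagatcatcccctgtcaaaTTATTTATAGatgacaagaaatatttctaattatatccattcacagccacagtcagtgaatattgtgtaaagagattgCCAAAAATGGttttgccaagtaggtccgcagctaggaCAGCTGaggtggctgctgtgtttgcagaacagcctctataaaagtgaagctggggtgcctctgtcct
Myh8: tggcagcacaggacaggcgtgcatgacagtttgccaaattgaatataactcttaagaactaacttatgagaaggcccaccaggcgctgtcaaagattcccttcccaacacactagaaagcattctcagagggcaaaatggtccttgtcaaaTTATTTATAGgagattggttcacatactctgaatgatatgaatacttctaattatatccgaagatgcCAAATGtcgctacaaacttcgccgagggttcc
The windows span chr7:19410844-19411024 for Ckm, chr11:67237562-67237811 for Myh4 and chr11:67276874-67277123 for Myh8. The Ckm window ends where GENCODE places an exon of the gene, which left out its last 69 bases. The Myh4 window held 2 E-boxes, 1 CArG box and 1 MEF2 match, and the Myh8 window 1 E-box and the same MEF2 word, ttatttatag. The Ckm window held 1 E-box. The first bases of the Myh4 window overlap an exon of Myhas, a gene on the opposite strand. Of 32851 RefSeq windows of 250 bases, 66.2% held an E-box, 1.47% a CArG box and 2.92% a MEF2 match. These matches describe letters and are not shown to be bound.

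The cells carried the genes that mark myocytes. Of the 8 genes of the myocyte list, Ckm and Myh3 were used to form the sets and are left out here. The other 6 (Myh8, Ttn, Myog, Acta1, Tnnt3 and Mylpf) summed to 27734 UMIs per 1000000 UMIs of the set (CPM). In the 243 cells of the same library with at least 20 UMIs of Dcn, a fibroblast gene, they summed to 3719 CPM. Myh3 had 1, 59 and 351 UMIs in the lowest, median and highest of the 386 cells, Ttn (titin) 0, 88.5 and 497, and Myog (myogenin) 0, 50 and 220. At least 10 Myh3 UMIs were held by 367 of the 386 cells (95.1%). Markers of other cell types were mixed. Fibroblast markers summed to 142 CPM in these cells against 1114 CPM over all kept cells, with Lum at 0.212 CPM, and satellite cell markers to 155 against 373 CPM, with Pax7 at 6.44 CPM. Smooth muscle markers were above the culture's level, at 3483 against 1945 CPM, most of it from Acta2 and Des, which skeletal muscle cells also make. Cardiomyocyte markers summed to 7.07 against 3.73 CPM, with Ryr2 at 0. Of 5 immune markers 4 were at 0 UMIs, of 5 endothelial markers 2 and of 8 glial and neuronal markers 2.

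The 386 cells held 8775, 32798 and 156655 UMIs (lowest, median and highest), the Ckm-low cells a median of 29603.5 and the Myh4-positive cells a median of 50436. Mitochondrial UMIs took a median of 4.74%, 4.84% and 7.53% in these sets. Ribosomal protein genes took 28.1%, 28.5% and 22.8% of the summed UMIs. A doublet caller marked 38 of the 386 cells (9.84%), 70 Ckm-low cells (10.4%) and 37 Myh4-positive cells (7.52%), against 4.03% of all kept cells. Among barcodes of kept cells, 15 occurred in both libraries, and 1 of the 386 barcodes was also listed for MEF. In the fibroblast library 0 of 5384 cells met the rule, which allows a share of up to 0.0557%, and Ckm had 0 UMIs.

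Myh4 was not detected in many cells with Ckm. Of the 1037 cells with at least 5 Ckm UMIs, 386 (37.2%) held 0 Myh4 UMIs, 159 (15.3%) held 1 and 224 (21.6%) held 10 or more. Among cells with at least 10 Myh3 UMIs, 70.6% of those with 0 Ckm UMIs lacked Myh4, as did 51.5% at 5 to 9 Ckm UMIs and 14.4% at 20 or more. Median depth moved with this series, from 29124 to 35913 and 52310 UMIs. A count of 0 Myh4 at the median depth of the 386 cells allows up to 91.5 CPM in a single cell. The Myh4-positive cells stood at 330 CPM of Myh4 and the Ckm-low cells at 44.3 CPM. The Ckm threshold was passed narrowly by many cells, with 54 at exactly 5 Ckm UMIs and 57 more just outside at 4 Ckm and 0 Myh4 UMIs. Ckm itself had 5, 9 and 62 UMIs (lowest, median and highest) in the 386 cells and 5, 18 and 216 in the Myh4-positive cells, which is 319.5 and 469 CPM.

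**Figure D1:**
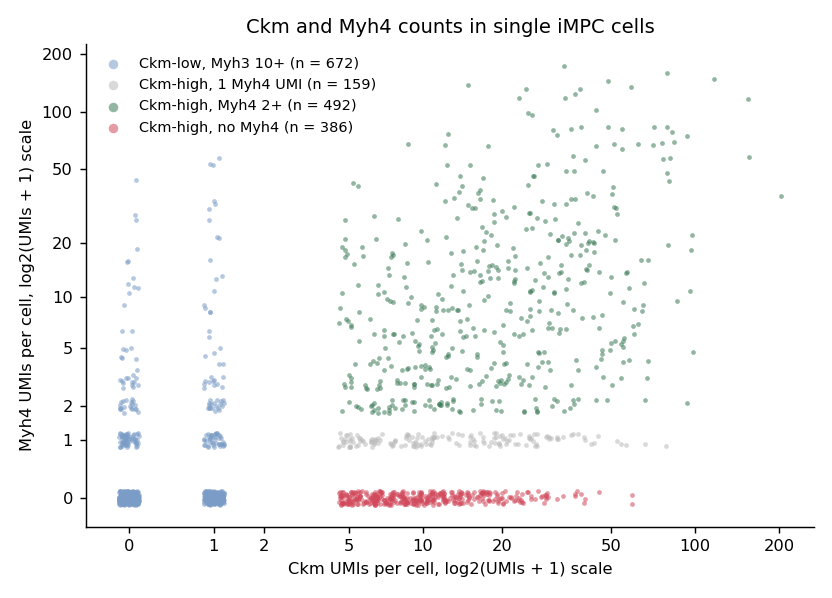
Myh4 UMIs per cell (vertical axis) against Ckm UMIs per cell (horizontal axis), both on a log2(UMIs + 1) scale with small random offsets, for 1 point per cell of the iMPC sets, the 672 Ckm-low cells at the left. The 386 Ckm-high cells without Myh4 lie along the bottom from 5 to 62 Ckm UMIs, the 492 Myh4-positive cells above them, and 159 cells with 1 Myh4 UMI between.

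Set against the Ckm-low cells, the 386 cells differed in few genes. Of 4783 genes that reached 20 CPM in either set, called tested genes from here on, 5 were at least 2-fold higher in the cells with Ckm (0.105%) and 64 at least 2-fold lower (1.34%), with Ckm, Myh3 and Myh4 left out. The median log2 ratio over all tested genes was -0.0731. The Ckm-low set is itself mixed, because 210 of its 672 cells (31.25%) held a Myh4 UMI and 108 (16.1%) held at least 2. Its 462 cells with 0 Myh4 UMIs were therefore taken as a further comparator, chosen after the data had been seen. Against these, 22 of 4877 genes were at least 2-fold higher (0.451%) and 148 lower (3.03%). The 3 comparisons below share the 386 cells, so their values are set side by side.

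Cell cycle genes were lower in the 386 cells. All 16 genes of the cell cycle list had a lower CPM than in Ckm-low cells, with a sum of 274 against 705 CPM, and than in the Ckm-low cells without Myh4 (895 CPM). Of the 6 that reached 20 CPM in the 386 cells themselves, 5 were at least 2-fold lower than in Ckm-low cells and 6 than in those without Myh4. A further 7 and 8 genes reached 20 CPM only in the comparator, where they were high, and so could only be called lower. Of all tested genes, which include such genes, 1.34% and 3.03% were at least 2-fold lower in these comparisons. Top2a, which untangles replicated DNA, had 0, 0 and 40 UMIs per cell (lowest, median, highest) against 0, 0 and 65 in Ckm-low cells. Its level was 40.9 against 129 CPM, with a log2 ratio of -1.65 (-1.78 to -1.52). Mki67, the proliferation antigen, reached 20 CPM only in the Ckm-low cells, at 15.6 against 35.6 CPM (-1.19, interval -1.42 to -0.97). Cdk1, the mitotic kinase, stood at 35.8 against 82.9 CPM (-1.21, interval -1.36 to -1.07). With the cells chosen on thinned counts, Cdk1 stood at -0.78, short of the call. Pcna, the replication clamp, was the 1 of the 6 short of the call, at 22.2 against 42.5 CPM. By the naming rule, the lowest ratios also included Cdca8 (-1.73), a subunit of the chromosomal passenger complex, Smc2 (-1.72), a condensin subunit, Cenpa (-1.58), the centromeric histone, and Birc5 (-1.54), survivin.

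Cycling transcripts were concentrated in few cells. With each cell thinned at random to the minimum depth of about 8000 UMIs, 32 of the 386 cells (8.29%, interval 5.74 to 11.5%) held at least 5 UMIs of 14 cycling genes. The share was 22.3% (19.2 to 25.7%) among Ckm-low cells, 26.0% among those without Myh4, 4.88% in Myh4-positive cells and 41.7% over all kept cells. At full depth these shares were 17.9%, 32.0%, 36.8%, 19.9% and 49.4%. The 32 cells held 73.2% of all cycling gene UMIs of the 386 cells at equal depth, and 64.8% of the 386 held none. Doublet calls moved with these genes, and their part was not tested. Without the called cells, the log2 ratio of Top2a against Ckm-low cells was -2.87 and that of Mki67 -2.95, and Cdk1 (-2.03), Cenpa (-2.35), Cdca8 (-2.70), Birc5 (-2.74) and Smc2 (-2.83) were lower too. With the choice of cells made on counts thinned to that minimum depth, Cdk1 stood at -0.78, short of the call. Fibroblast markers also moved with this comparison, and their part was not tested: the 12 genes of that list summed to 142 CPM in the 386 cells, 228 CPM in Ckm-low cells and 287 CPM in those without Myh4.

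**Figure D2:**
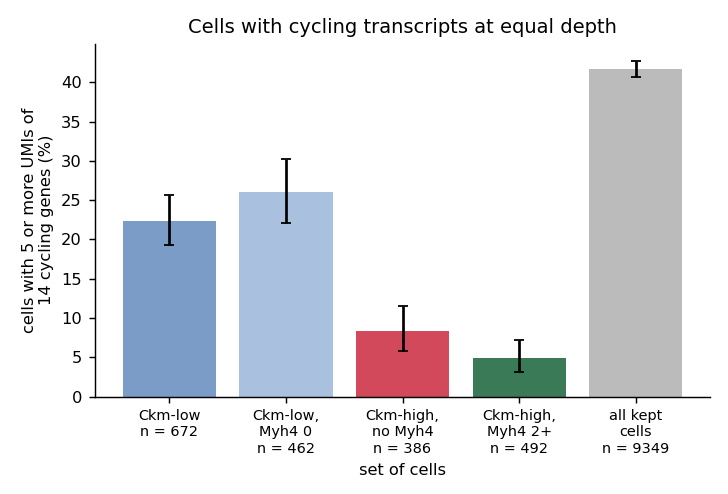
Share of cells in percent with at least 5 UMIs of 14 cycling genes after each cell was thinned to about 8000 UMIs, with exact binomial 95% intervals as error bars. The Ckm-high cells without Myh4 stand at 8.29%, below Ckm-low cells (22.3%) and all kept cells (41.7%), and their interval overlaps that of the Myh4-positive cells (4.88%).

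Genes of cell cycle exit were present in both sets. Cdkn1c (p57, a cyclin-dependent kinase inhibitor) had 0, 125.5 and 726 UMIs per cell in the 386 cells and 0, 57.5 and 454 in Ckm-low cells, or 3688 against 2630 CPM. Cdkn1a (p21, another such inhibitor) stood at 1484 against 1179 CPM. Ccnd1 and Ccnd2, the D-type cyclins of proliferating cells, stood at 47.6 against 74.1 CPM and at 22.0 against 33.7 CPM. Of 10 tested genes of this list 0 passed the 2-fold call in either direction, with a median log2 ratio of 0.12. Gpx3, a secreted glutathione peroxidase outside the lists, headed the ranked genes, at 20.6 against 70.7 CPM (-1.78, interval -1.97 to -1.60), and stood at -1.12 against the Ckm-low cells without Myh4. It was also lower than in the Myh4-positive cells, at 117 CPM there.

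In summed level, contractile genes differed little from the whole Ckm-low set and more from its cells without Myh4, and few reached 2-fold in either. Typical single cells differed more from the whole set. The median cell's list sum was 18307 against 10589 CPM for myosin light chains and 22695 against 13681 CPM for troponins. For the thin filament list it was 29012 against 17922 CPM. The upper quartile of the light chain sum was higher in Ckm-low cells, at 32935 against 27003 CPM. All 7 tested troponin genes had log2 ratios above 0 against Ckm-low cells, with a median of 0.36, and 0.72 against those without Myh4. Tnni2, the fast inhibitory troponin, stood at 2293 CPM in the 386 cells, 1609 CPM in Ckm-low cells and 1329 CPM in those without Myh4. Acta1, the skeletal actin, had 5, 311 and 2035 UMIs in the lowest, median and highest of the 386 cells and 2, 105.5 and 1409 in Ckm-low cells, or 10697 against 7891 CPM in sum. Actc1, the cardiac actin that developing skeletal muscle also makes, stood at 9246 against 6226 CPM, a log2 ratio of 0.57 (0.56 to 0.58). The thin filament list had a median of 0.21, the list of titin, Z-disc and M-band genes 0.13 and the excitation-contraction coupling list 0.24. Against Ckm-low cells without Myh4 these medians were 0.60, 0.62 and 0.50, where the median of all tested genes was -0.0899. There 0 of 10, 1 of 23 and 0 of 21 tested genes passed the 2-fold call, the 1 being Myoz1, at 38.0 against 18.3 CPM (1.05). Against the whole Ckm-low set the log2 ratio of Myoz1 was below 0 and missed the call.

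**Figure D3:**
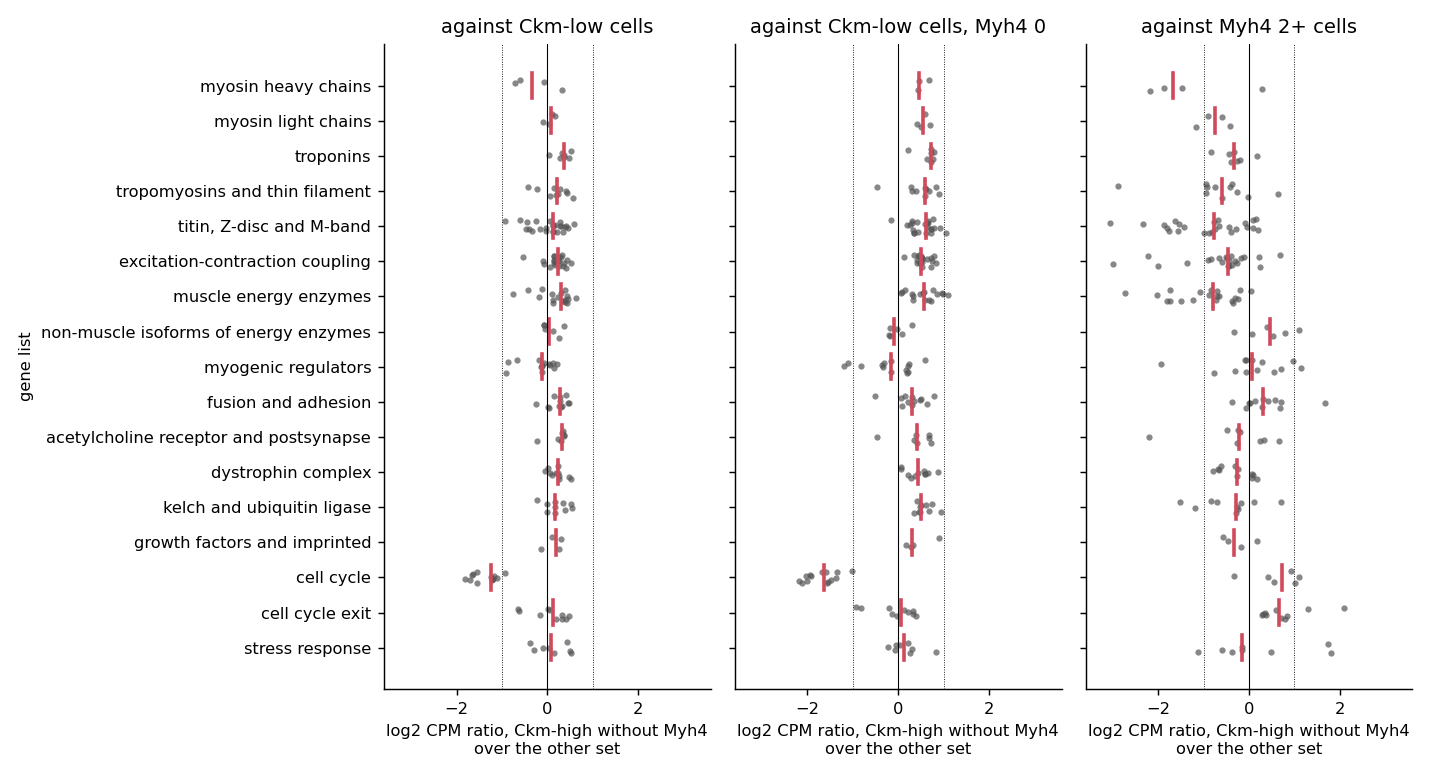
Log2 ratios of CPM (horizontal axes), Ckm-high cells without Myh4 over the set named above each panel, for the tested genes of 17 lists (points) with the list medians (red bars) and dotted lines at a 2-fold ratio. Points include genes that reached 20 CPM in only 1 of the sets compared, as did 7 of 13 cell cycle genes in the panel against Ckm-low cells. The cell cycle points lie left of 0 in both panels against Ckm-low cells, and most points of the contractile lists lie left of 0 in the panel against Myh4-positive cells.

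The direction of myosin heavy chain genes turned with the comparator and with the choice of cells. Of the 7 not used in the rule, 2 had a higher and 5 a lower CPM than in Ckm-low cells, but 6 a higher and 1 a lower CPM than in those without Myh4. Myh8 had 0, 9 and 223 UMIs per cell in the 386 cells and 0, 8 and 237 in Ckm-low cells, with summed levels of 485 and 739 CPM. Its log2 ratio was -0.61 (-0.65 to -0.57) against all Ckm-low cells but 0.43 against those without Myh4 (360 CPM). Myh1, the IIx gene, stood at 328 CPM against 344 and 238 CPM, and Myh2, the IIa gene, at 19.6 against 32.3 and 18.7 CPM. Myh7, the slow myosin gene, stood at 134 against 107 and 83.8 CPM. None of these 4 reached 2-fold. With the cells chosen on thinned counts, the log2 ratios against Ckm-low cells were 0.48 for Myh1, 0.07 for Myh8 and -0.46 for Myh7, each of the opposite sign. Near-identical sequences within this family can divide reads between its members, so a level of a single member is uncertain.

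Most energy metabolism genes other than Ckm, whose direction followed from the choice, stood higher than in Ckm-low cells. Of 24 such genes on the muscle energy list, 16 had a higher and 8 a lower CPM. Against those without Myh4 these numbers were 22 and 2. Of 17 tested muscle energy genes 13 had log2 ratios above 0 against Ckm-low cells, with a median of 0.31, and 17 of 17 against those without Myh4, with a median of 0.56. The medians of all tested genes were -0.0731 and -0.0899. Against the Ckm-low cells without Myh4, Pgam2, the muscle phosphoglycerate mutase, passed the 2-fold call at 350 against 164 CPM (1.10). Eno3, the muscle enolase, stood at 971 CPM against 628 in Ckm-low cells and 500 in those without Myh4. Pygm, the muscle glycogen phosphorylase, stood at 63.7 against 47.1 and 32.4 CPM. Car3, the muscle carbonic anhydrase, stood at 946 against 1593 and 897 CPM. Of 6 tested non-muscle isoforms of these enzymes 0 passed the call, with medians of 0.04 and -0.10. Ckb, the brain-type creatine kinase, stood at 232 against 180 and 218 CPM.

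Few genes besides Ckm were raised to 2-fold over Ckm-low cells. Cck, the gene of the peptide hormone cholecystokinin, had 0, 1 and 96 UMIs per cell in the 386 cells and 0, 0 and 66 in Ckm-low cells, or 154 against 67.5 CPM, a log2 ratio of 1.19 (1.09 to 1.28). At equal depth 36.5% of the 386 cells held a Cck UMI, against 19.05% of Ckm-low cells (52.3% and 30.7% at full depth). The Dcn-high cells stood at 1278 CPM of Cck, with a UMI in 47.7% of cells at equal depth (53.1% at full depth). Fgf21, a hormone gene induced in stressed muscle, stood at 127 against 62.7 CPM (1.01, interval 0.91 to 1.12), with a UMI at equal depth in 44.3% against 22.6% of cells (63.5% and 41.5% at full depth). The Dcn-high cells, with a median depth of 18872 UMIs, held Fgf21 in 1.65% of cells at equal depth and 4.12% at full depth. Ecrg4, a secreted peptide gene, stood at 245 against 121 CPM (1.01, interval 0.94 to 1.09). The other two, Shroom3 (1.03) and Col23a1 (1.05), were near the 20 CPM limit and were looked up after their values were seen. Against Ckm-low cells without Myh4, Cck (0.87), Fgf21 (0.85) and Ecrg4 (0.68) missed 2-fold, as they did against Ckm-low cells with the choice made on thinned counts (0.85, 0.28 and 0.53).

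Genes with a 2-fold excess over the Ckm-low cells without Myh4 were led by Pdlim5, a PDZ and LIM protein of the Z-disc, at 167 against 66.5 CPM (1.33). Itgb1bp2 (melusin, an integrin partner in striated muscle) stood at 271 against 108 CPM (1.33) and Grtp1, a TBC domain gene, at 63.2 against 28.5 CPM (1.15). Fn3k, a kinase of glycated proteins, had a log2 ratio of 1.11, Ebp, a sterol isomerase, 1.11, and Anxa3, an annexin, 1.09. Against the Myh4-positive cells the log2 ratios of these 6 genes ran from -0.40 for Pdlim5 to 0.85 for Grtp1. With the choice made on thinned counts, Grtp1 (-0.03) and Ebp (-0.01) turned below 0 against the whole Ckm-low set.

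Among regulators of myogenesis, Myog, Myod1 and Mef2c stood at nearly the same levels in the 386 cells and in Ckm-low cells. Myog was at 1440.3 against 1392 CPM, Myod1 at 249 against 269 CPM, and Mef2c, a partner of both, at 1088 against 1060 CPM. Over all 22 genes of the regulator list, 15 had a lower and 6 a higher CPM than in Ckm-low cells. Of its 14 tested genes 0 passed the 2-fold call. Their log2 ratios ran from -0.92 to 0.20, with a median of -0.11, where that of all tested genes was -0.0731. Against Ckm-low cells without Myh4, 2 passed the call as lower. These were Id2, an inhibitor of MyoD family factors, at 37.8 against 86.2 CPM (-1.19), and Six4, at 11.6 against 24.8 CPM (-1.09). Six4, a homeobox gene, reached 20 CPM only in the Ckm-low cells. The fusion genes Mymk (myomaker), at 677 against 489 CPM, and Mymx (myomixer), at 344 against 290 CPM, missed 2-fold, and so did the other 10 tested fusion and adhesion genes. Acetylcholine receptor and postsynaptic genes had a median log2 ratio of 0.32, dystrophin complex genes 0.22 and kelch and ubiquitin ligase genes 0.17, with 0 past the call in each.

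Against the Myh4-positive cells the 386 cells differed in more genes. Of 4690 tested genes 164 were at least 2-fold higher in the 386 cells (3.5%) and 195 lower (4.16%), with a median log2 ratio of 0.0408. Ckm, which both sets were chosen to hold, stood at 319.5 against 469 CPM. The Myh4-positive cells were deeper and had more mitochondrial UMIs, as given above, and the part of these in the differences was not tested. Among cells of 20000 to 60000 UMIs 285 genes were higher and 289 lower.

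Most tested myosin heavy chain genes were lower where Myh4 was not detected. Myh8 had 0, 9 and 223 UMIs (lowest, median and highest) in the 386 cells and 3, 109 and 431 in the Myh4-positive cells. The quartile ranges of the sets did not overlap (102 to 557 against 1279 to 3175 CPM). Single cells of each set still fell within the quartile range of the other. The summed level of Myh8 was 485 against 2207 CPM, 4.55-fold lower (log2 ratio -2.19, interval -2.22 to -2.15). Myh1 stood at 328 against 910 CPM (-1.47, interval -1.52 to -1.43) and Myh2 at 19.6 against 71.3 CPM (-1.86, interval -2.05 to -1.68). Myh7, the slow gene, did not share this, at 134 against 110 CPM (0.29), and 6 of the 7 heavy chain genes outside the rule had a lower CPM. Myh2 reached 20 CPM only in the Myh4-positive cells. The MEF2 word shown above occurred in the windows of both Myh4 and Myh8. The windows of Myh1, Myh2 and Myh7 were not looked at singly, and any part of the word in these levels was not tested.

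Other lower genes were spread over the sarcomere and its membranes. Of 23 titin, Z-disc and M-band genes that reached 20 CPM in the 386 cells, 7 were at least 2-fold lower than in Myh4-positive cells and 0 higher. Another 2, Myot among them, reached it only in the Myh4-positive cells and were lower. Together these were 9 of 25 tested genes, against 4.16% of all tested genes. Myoz1, a Z-disc protein of fast fibres, had 0, 0 and 24 UMIs per cell against 0, 14 and 123, or 38.0 against 318 CPM (-3.06, interval -3.19 to -2.94). Actn3, the fast-fibre alpha-actinin, stood at 167 against 568 CPM (-1.77), Tcap (telethonin) at 63.2 against 233 CPM (-1.88) and Myot (myotilin) at 19.4 against 97.8 CPM (-2.33). Titin itself stood at 2763 against 3734 CPM (-0.43) and missed the call. Of 10 thin filament genes at 20 CPM in the 386 cells 0 were lower, and Tmod4, a pointed-end capping tropomodulin that reached it only in the Myh4-positive cells, stood at 7.22 against 53.6 CPM (-2.89). Acta1 (-0.59), Tpm1 (-0.95) and Neb (nebulin, -0.26) missed it, as did all 7 troponins, whose median was -0.32. Of the light chains Myl1 was lower, at 5781 against 12904 CPM (-1.16), while Mylpf, at 9610.1 against 17918 CPM (-0.90), missed the call.

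Calcium handling genes were uneven. Casq1, the fast-fibre calsequestrin, had 0, 0 and 50 UMIs per cell against 0, 27 and 78, or 107 against 500 CPM (-2.22, interval -2.30 to -2.15). At equal depth 26.2% of the 386 cells and 91.3% of the Myh4-positive cells held a Casq1 UMI (44.8% and 98.0% at full depth), and 6.58% of the Dcn-high cells did (13.2% at full depth). Casq2, the cardiac and slow calsequestrin, stood at 457 against 646 CPM (-0.50). Pvalb, the calcium buffer parvalbumin of fast fibres, stood at 27.8 against 221 CPM (-2.99, interval -3.14 to -2.84), and at equal depth 8.55% against 43.7% of cells held it, with 3.29% of Dcn-high cells. Cacna1s, the voltage sensor of the T-tubule, stood at 29.5 against 75.4 CPM (-1.35), whereas Ryr1, the calcium release channel, stood at 104 against 193 CPM (-0.89). Of 21 excitation-contraction coupling genes at 20 CPM in the 386 cells 3 were lower and 0 higher, and 1 more, Sypl2, reached it only in the Myh4-positive cells. In all, 4 of 22 tested genes of this list were lower, against 4.16% of all tested genes.

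Of 17 muscle energy genes at 20 CPM in the 386 cells 5 were lower than in the Myh4-positive cells and 0 higher. Another 3, Ckmt2 and Ampd1 among them, reached it only in the Myh4-positive cells and could only be called lower. That made 8 of 20 tested genes, against 4.16% of all tested genes. Car3 stood at 946 against 3167 CPM (-1.74), Mb (myoglobin) at 144 against 407 CPM (-1.49), Ckmt2, the mitochondrial creatine kinase of muscle, at 17.1 against 60.0 CPM (-1.81) and Ampd1, the muscle AMP deaminase, at 4.95 against 20.3 CPM (-2.03). Ldha (0.04), Aldoa (-0.20) and Eno3 (-0.32) differed little. Ckb went the other way, at 232 against 109 CPM (1.10, interval 1.02 to 1.17), as 1 of 6 tested non-muscle isoforms past the call.

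By the naming rule, the lowest ratios against Myh4-positive cells were completed by Mlf1, at 7.36 against 67.9 CPM (-3.21), Cd24a, a surface glycoprotein, at 20.9 against 123 CPM (-2.55), Rgcc, a cell cycle regulator, at 16.8 against 79.5 CPM (-2.24), and Il11ra1, the interleukin 11 receptor, at 24.1 against 112 CPM (-2.22). Of the postsynaptic genes, Ache (acetylcholinesterase), at 20 CPM only in the Myh4-positive cells, was lower, at 6.37 against 29.2 CPM (-2.20), while the receptor subunits Chrna1 (-0.24), Chrng (-0.26) and Chrnd (-0.20) missed the call. Of the kelch and ubiquitin ligase list 2 of 10 were lower, against 4.16% of all tested genes, among them Smpx at 401 against 912 CPM (-1.19).

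Acta2, the smooth muscle actin that differentiating skeletal muscle makes for a time, was the named gene with the largest excess over Myh4-positive cells. It had 0, 54 and 261 UMIs per cell in the 386 cells, 0, 1 and 278 in Myh4-positive cells and 0, 23 and 560 in Ckm-low cells. The summed levels were 1556, 282 and 932 CPM, and the log2 ratio to Myh4-positive cells was 2.47 (2.43 to 2.5), a 5.53-fold difference. At equal depth 87.6% of the 386 cells and 38.4% of the Myh4-positive cells held an Acta2 UMI, against 32.5% of Dcn-high cells (92.7%, 66.5% and 46.9% at full depth). Acta2 and Tagln (transgelin, 94.9 against 32.6 CPM) were 2 of 4 tested smooth muscle markers at least 2-fold higher than in Myh4-positive cells, with 0 lower. Of all tested genes 3.5% were higher and 4.16% lower. The smooth muscle list summed to 3483 against 3375 CPM, and Des (desmin), which is also a muscle gene, stood at 1779 against 3010.5 CPM. Against Ckm-low cells the sum was 3483 against 2657 CPM, and Acta2 (0.74), Tagln (0.70), Smtn (0.42) and Des (0.13) all had log2 ratios above 0. Cnn1 stood at 1.06 against 1.48 CPM and Myh11 at 1.49 against 1.99 CPM. In the fibroblast library Acta2 stood at 6109 CPM.

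Some genes of cell cycle exit, and Myog, were higher than in Myh4-positive cells. All 10 tested genes of the exit list had log2 ratios above 0, with a median of 0.65, and 2 passed the call, against 3.5% of all tested genes. Cdkn1c had 0, 125.5 and 726 UMIs per cell against 0, 11 and 765, or 3688 against 863 CPM (2.10, interval 2.07 to 2.12), and 2.94 among cells of 20000 to 60000 UMIs. Gadd45g, a growth arrest gene, stood at 659 against 268 CPM (1.30). Myog had 0, 50 and 220 UMIs per cell against 0, 25 and 239, or 1440.3 against 651 CPM, 2.21-fold higher (1.15, interval 1.12 to 1.18). Myod1, at 249 against 127 CPM (0.98), fell just short. Myf6 (MRF4), the MyoD family member of mature fibres, was lower, at 38.2 against 146 CPM (-1.94, interval -2.07 to -1.81), and 15.0% of the 386 cells held it at equal depth against 49.0% and 2.06% of Dcn-high cells (28.2%, 77.6% and 4.12% at full depth).

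Fusion and adhesion genes had a median log2 ratio of 0.30 against Myh4-positive cells. Jam3, a junctional adhesion molecule, was the 1 of 12 past the call, at 106 against 33.1 CPM (1.68), and Mymk, at 677 against 453 CPM (0.58), and Mymx, at 344 against 210 CPM (0.71), missed it. Cavin2, a caveolar coat gene, stood at 127 against 23.1 CPM (2.46) and Ecrg4 at 245 against 51.0 CPM (2.26). Nupr1, a stress-induced nuclear protein gene, stood at 227 against 55.2 CPM (2.04), Adh7, an alcohol dehydrogenase, at 60.8 against 14.3 CPM (2.09), and Lmnb2 (lamin B2) at 105 against 28.9 CPM (1.87). Of 8 tested stress genes Gadd45b (137 against 39.0 CPM, 1.81) and Ddit3 (CHOP, 66.6 against 20 CPM, 1.74) were higher and Fos (46.8 against 102 CPM, -1.13) lower. Of all tested genes 3.5% were higher and 4.16% lower. Of the cell cycle list Top2a, at 40.9 against 19 CPM (1.11), and Cdk1, at 35.8 against 17.8 CPM (1.0), were higher, and both reached 20 CPM only in the 386 cells. Neither call held without the called doublets (0.67 and 0.79) or with the cells chosen on thinned counts (0.11 and 0.46).

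The size of these differences depended on how the sets were chosen. With the choice made on counts thinned to the minimum depth of about 8000 UMIs, 134 cells remained without Myh4 and 108 with it. Among the lower genes, the log2 ratio was then -1.26 for Myh8, -1.24 for Casq1, -1.86 for Myoz1, -1.98 for Pvalb, -1.52 for Tmod4, -1.25 for Gpx3 and -1.01 for both Rgcc and Il11ra1. Myh1 (-0.78), Myl1 (-0.70), Cacna1s (-0.72), Car3 (-0.98), Smpx (-0.56) and Ckb (0.77) no longer reached 2-fold. The excess was larger for Acta2 (3.71), Fgf21 (4.38), Tagln (4.26), Ecrg4 (3.22) and Cdkn1c (2.87). Of the cycling genes, Top2a (0.11) and Cdk1 (0.46) fell short of the call, and Birc5 (-0.35), Cenpa (-0.57) and Pclaf (-0.51) turned below 0. The histone gene Hist1h2ap also turned below 0 and passed 2-fold there (-1.16). Against cells with at least 5 Myh4 UMIs, Acta2 stood at 3.11 and Fgf21 at 2.85. Among cells of 20000 to 60000 UMIs, Cavin2 stood at 3.29 and Top2a at 1.82. With every cell's counts thinned to that minimum depth, Pvalb stood at -3.91 and Ache at -2.92, and with at least 10 Ckm UMIs Mlf1 stood at -3.81.

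**Figure D4:**
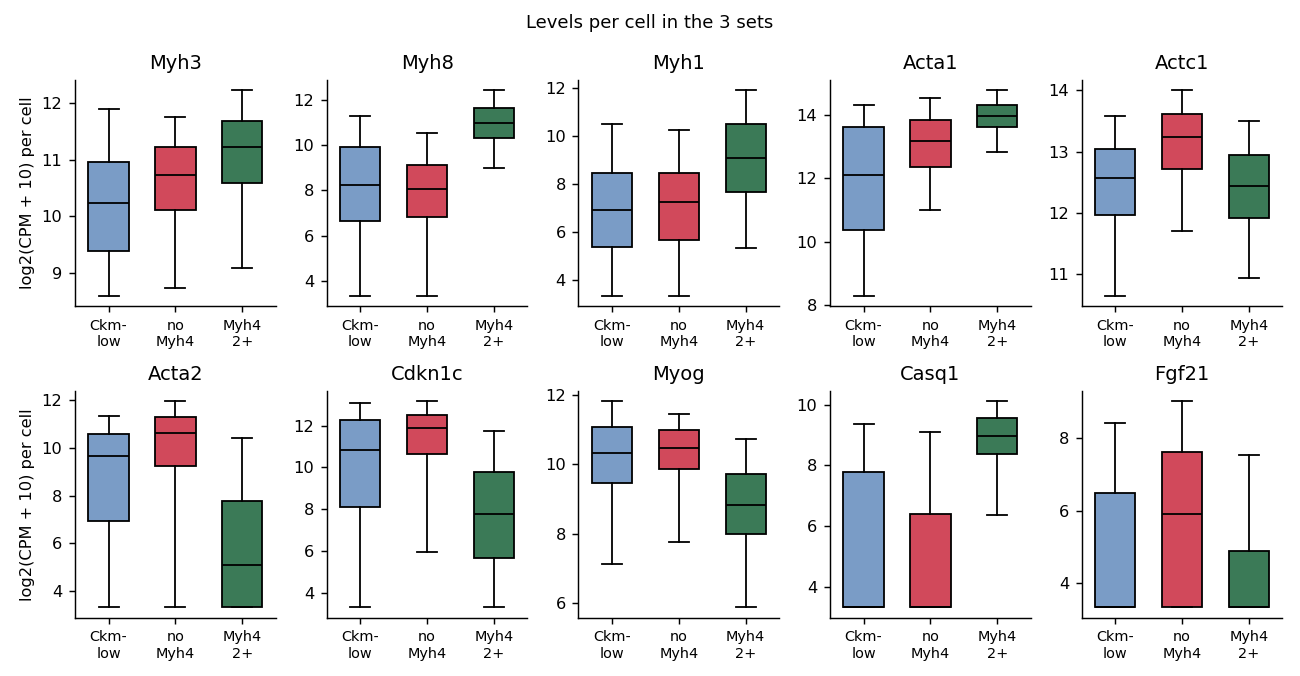
Levels per cell of 10 genes as log2(CPM + 10) (vertical axes) in Ckm-low cells, Ckm-high cells without Myh4 and Myh4-positive cells, with boxes from the lower to the upper quartile, lines at the median and whiskers from the 5th to the 95th percentile. Myh8 and Casq1 sit low in the first pair of sets and high in the Myh4-positive cells, while Acta2, Cdkn1c and Myog sit lowest in the Myh4-positive cells.

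Among all 1037 Ckm-high cells, some genes followed the Myh4 count at every step and others did not. At 0, 1, 2, 3 to 4, 5 to 9 and 10 or more Myh4 UMIs, Myh8 stood at 485, 998, 1419.6, 1828, 2136 and 2635 CPM. Casq1 ran from 107 to 270, 321, 418, 469 and 603 CPM and Myoz1 from 38.0 to 458 CPM. Acta2 ran the other way, from 1556 to 858, 553, 462, 285 and 125 CPM, as did Cdkn1c, from 3688 to 545 CPM, and Myog, from 1440.3 to 488 CPM. Other genes had no such order. Myh7 stood at 134, 136, 156, 165, 120 and 67.9 CPM, Pvalb dipped from 78.7 to 64.8 CPM between 1 and 2 Myh4 UMIs, Myh2 from 69.6 to 61.0 CPM between 3 to 4 and 5 to 9, and Acta1 from 14899 to 14610 CPM between 2 and 3 to 4. Ckm stood at 319.5, 358, 329 and 331 CPM, and reached 608 CPM at 10 or more Myh4 UMIs. Median depth ran from 32798 to 56578 UMIs over these steps and was 51946 at the last. The 159 cells with 1 Myh4 UMI lay between the 386 cells and the Myh4-positive cells in Myh8, Casq1, Acta2, Cdkn1c and Myog.

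**Figure D5:**
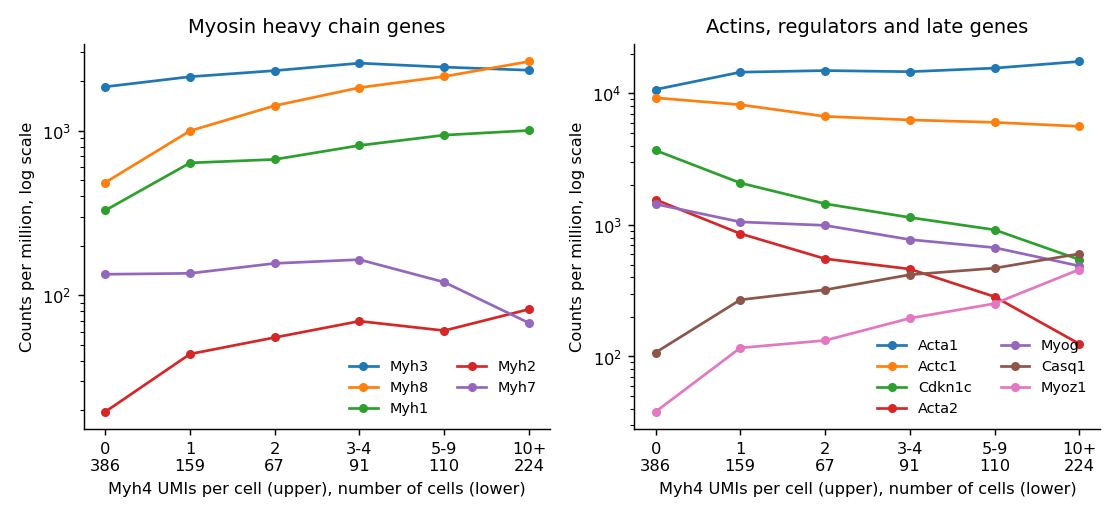
Summed level in CPM (vertical axes, log scale) of 5 myosin heavy chain genes and 7 other genes in Ckm-high cells grouped by their Myh4 UMIs (horizontal axes, with the number of cells). Myh8 goes from 485 to 2635 CPM and Acta2 from 1556 to 125 CPM between 0 and 10 or more Myh4 UMIs.

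Cells with Myh4 but little Ckm were also present. The 108 Ckm-low cells with at least 2 Myh4 UMIs held Myh8 at 1823 CPM and Acta2 at 399.7 CPM, nearer to the Myh4-positive Ckm-high cells (2207 and 282 CPM) than to the 386 cells (485 and 1556 CPM). Between these Ckm-low cells and the Myh4-positive Ckm-high cells, 27 of 4638 genes were at least 2-fold higher in the latter (0.582%) and 11 lower (0.237%). Myoz1 was among those higher, at 318 against 122 CPM (1.38), and so was Pvalb, at 221 against 53.4 CPM (2.05).

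The 386 cells varied among themselves. By their own Ckm count, 100 cells had 5 to 6 UMIs, 101 had 7 to 9, 136 had 10 to 19 and 49 had 20 or more, with median depths of 29634, 33004, 33222 and 38123 UMIs. Over these groups Myh3 stood at 1566.5, 1782, 1931 and 2202 CPM, Ttn at 2541, 2666, 2838 and 3091 CPM and Eno3 at 781, 959, 1029.8 and 1134.5 CPM, each in the order of Ckm. Pgam2 ended higher than it began, at 294 and 454 CPM, with 345 CPM in both middle groups. Myh8 had no such order, at 519.8, 497, 389.97 and 647 CPM, nor did Car3, at 973, 1268, 459.7 and 1548 CPM, or Cdkn1c, at 3760, 3499, 4007 and 3113 CPM. Myf6 was highest at 20 or more Ckm UMIs, at 76.6 CPM, against 23.6 CPM at 5 to 6. Quartiles over single cells were wide for Acta2 (599 to 2526.5 CPM) and Cdkn1c (1585 to 5788 CPM), and narrower for Mymk (472 to 899.9 CPM).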

How the data were processed

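Each library was deposited as a matrix of whole-number UMI counts per gene and barcode, which are raw counts per the file headers. The submitters' processing notes name Cell Ranger 4.0, Seurat 3.2.3 and GRCm38.p6. The iMPC matrix listed 6794880 barcodes with 282903287 UMIs, and the MEF matrix 6113 barcodes with 118541302 UMIs. From these counts, cells were kept and sets formed by the thresholds given above, over 26100 genes, keeping for a repeated symbol the entry with most UMIs. The cell sets, the 25 gene lists and their 288 genes were chosen with earlier results of these data known, and 4 of the genes (H19, Meg3, Rian and Mirg) are not analysed here. UMIs were summed over each set and scaled to 1000000 (CPM). A gene was tested at 20 CPM or more in the higher set and called at a 2-fold ratio, a threshold of size and not a statistical test, since each condition had 1 library. Intervals are 95% exact Poisson, conditional binomial or Clopper-Pearson and cover counting error only. Genes named by rank were the 10 highest and 10 lowest ratios among genes of at least 50 CPM in the higher set, leaving out Ckm, Myh3, Myh4 and mitochondrial genes, and the same ranks were taken for the comparator added later. Other genes came from the lists, or were looked up after their values were seen where said. Shares of cells were computed after each cell was thinned at random to the minimum depth of about 8000 UMIs. Doublets were called with Scrublet and kept in the sets. Near-identical myosin and actin sequences leave levels of single members uncertain. Ratios, intervals and calls were tested on simulated independent Poisson counts, the model that the intervals assume. That simulation left out the clumping of UMIs within cells, so it cannot show how the intervals hold for these data. The work used Python 3.11.15, numpy 2.4.6, scipy 1.17.1, pandas 2.3.3 and scanpy 1.11.5, with 18 alternatives planned and 2 added later.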

Additional observations from a re-analysis of the deposited data

Results flagged for a closer look

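Ckm was also counted in barcodes too shallow to be cells, which the main comparisons did not use. Their summed RNA entered only the alternatives that subtracted it from the sets. In barcodes of 1 to 100 UMIs of the iMPC library, Ckm stood at 86.4 CPM (exact Poisson interval 80.4 to 92.8), from 757 UMIs in 2636580 barcodes, where a count of 0 would allow up to 0.342 CPM. In barcodes of 200 to 600 UMIs it stood at 181 CPM (176 to 187), from 3857 UMIs in 48846 barcodes, against a limit of 0.141 CPM. Myh4 stood at 41.2 and 71.2 CPM in these barcodes and Myh8 at 454.5 and 613 CPM. At 430 UMIs of such RNA per cell, the latter levels would amount to 0.0780 Ckm UMIs and 0.0306 Myh4 UMIs. The fibroblast library held 0 Ckm UMIs.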

How the results depend on the processing

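Of the values that answer a comparison, 56 stayed within 1.5 times under an alternative and 27 moved further. These values are counts of cells or genes, which have no direction and so could not reverse. Of single genes and list medians, 5715 values stayed within the counting interval (lists: within 0.1 on the log2 scale) and 2274 moved. Of called values 0 reversed, while 268 of the values short of the call changed sign. Of these, 38 were against Ckm-low cells with 0 Myh4 UMIs and 92 with the choice made on thinned counts. Some of these 268 values passed 2-fold in the new direction. Among them were Myoz1 against Ckm-low cells with 0 Myh4 UMIs (1.05) and, with the choice on thinned counts, Hist1h2ap against Myh4-positive cells (-1.16). The 386 cells became 185 at 10 or more Ckm UMIs and 134 with the choice made on thinned counts. The 5 genes higher than in Ckm-low cells became 8 without called doublets, 2 at 3 or more Ckm UMIs, 23 at 10 or more, 3 with the choice on thinned counts, 11 in cells of 20000 to 60000 UMIs, 16 with Ckm-low cells of 5 or more Myh3 UMIs, 8 with the mean of each cell's CPM, 14 when centred on the median ratio, 13 at 10 CPM, 3 at 50 CPM, 17 with thinned counts and 22 against Ckm-low cells with 0 Myh4 UMIs. The 64 lower genes became 104 without called doublets, 26 with the choice on thinned counts, 143 with the lower Myh3 threshold, 108 with totals free of mitochondrial and ribosomal genes, 139 at 10 CPM, 21 at 50 CPM, 100 with thinned counts and 148 against Ckm-low cells with 0 Myh4 UMIs. Against Myh4-positive cells, the 164 higher genes became 285 in cells of 20000 to 60000 UMIs, 249 with 5 or more Myh4 UMIs and 88 at 50 CPM, and the 195 lower genes became 315 at 10 CPM and 101 at 50 CPM. The CPM thresholds change how many genes enter; for the other settings the cause was not tested. These counts need not hold the same genes. Of the 5 higher genes, 0 were still called with the choice on thinned counts and 1 against Ckm-low cells with 0 Myh4 UMIs. With the mean of each cell's CPM, 2 of the 5 were still called. Of the 64 lower genes, 11 were still called with the choice on thinned counts and 62 against Ckm-low cells with 0 Myh4 UMIs. Of the 20 genes ranked against Ckm-low cells, 3 were still named with the choice on thinned counts. Totals free of mitochondrial and ribosomal genes moved the median ratio against Ckm-low cells to -0.118. The Ckm-low cells with 0 Myh4 UMIs and the Ckm-high cells with 10 or more Myh3 UMIs were chosen as alternatives after seeing the data. No paired analysis was possible because each condition had 1 library, and no replicate could be left out.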

Other observations

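Genes outside the lists, looked up after their values were seen except where said, were also at least 2-fold higher in the 386 Ckm-high cells without Myh4 than in the Myh4-positive cells. Asns, which makes asparagine, stood at 343 against 128 CPM (log2 ratio 1.43, interval 1.36 to 1.49), and at 224 CPM in Ckm-low cells. The serine synthesis enzymes Phgdh, at 350.2 against 151 CPM (1.22), and Psph, which was named by rank, at 116 against 31.3 CPM (1.89), stood higher as well. So did Shmt2 (95.5 against 40.9 CPM) and Mthfd2 (180.05 against 73.0 CPM), mitochondrial enzymes of folate metabolism. Atf4, a transcription factor of the amino acid response, stood at 242 against 98.8 CPM (1.29) and Trib3, a pseudokinase, at 23.1 against 5.67 CPM (2.03). Against Ckm-low cells, Asns (0.61) and Phgdh (0.37) missed 2-fold.

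Several further genes were picked in the same way. Fdft1 (squalene synthase) stood at 37.6 against 12.6 CPM (1.58), Msmo1 at 89.5 against 31.0 CPM (1.53), Fdps at 113 against 41.6 CPM (1.44), Cyp51 at 67.6 against 25.7 CPM (1.39) and Idi1 at 63.4 against 25.3 CPM (1.32). Hspa5 (BiP) stood at 861 against 416 CPM (1.05), Manf at 742 against 339.96 CPM (1.13), Pdia4 at 111 against 41.4 CPM (1.42) and Creld2 at 74.9 against 30.3 CPM (1.30). Apart from Psph, the genes of this and the preceding paragraph were picked for their values. No list of them was examined, so they describe only themselves. They are some of the 164 of 4690 tested genes (3.5%) that were higher. For most of them the level in Ckm-low cells is not given here.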
